A study of Mus musculus with 12 samples.

Results

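The genes described here encode the subunits of RNA polymerases I, II and III, the mitochondrial RNA polymerase and the general factors that place these enzymes on promoters. They were taken by name: every protein-coding gene of the expression table whose symbol begins with Polr1, Polr2 or Polr3 and a letter, or with Polrmt, Gtf2, Gtf3, or Taf and a digit. This gave 72 genes of 11830 protein-coding genes and of 14852 genes in all. Another matching symbol, Polr2k-ps, is annotated as a pseudogene and is not counted among the 72. The samples were cisplatin-treated and control cells of ID8, a mouse line of ovarian cancer that arose from the surface epithelium of the ovary. Cisplatin is a platinum drug that crosslinks DNA, and the study asked about mRNA regulation by NAT10, the enzyme that makes N4-acetylcytidine (ac4C) in RNA, during its use. RNA freed of ribosomal RNA was fragmented and partly pulled down with anti-ac4C antibody (IP), and the 12 libraries form 4 groups of 3, namely cisplatin IP, cisplatin input, control IP and control input. The sources used here give no dose, no length of treatment and no word on whether replicates were separate cultures. The p-values therefore measure spread among libraries that may be technical repeats.

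RNA polymerase I transcribes the large ribosomal RNA precursor, RNA polymerase II the messenger RNAs and many small nuclear RNAs, and RNA polymerase III the transfer RNAs, the 5S ribosomal RNA and other short RNAs. The nuclear enzymes share a set of small subunits, and polymerases I and III share a further pair, while the large catalytic subunits are particular to each enzyme. Each enzyme needs its own factors: SL1 for polymerase I, TFIIA to TFIIH and the TBP-associated factors (TAFs) of TFIID for polymerase II, and TFIIIA, TFIIIB and TFIIIC for polymerase III. Cisplatin adducts in a transcribed strand stall the polymerase, and the TFIIH complex opens DNA both at promoters and during nucleotide excision repair.

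Values per library are FPKM (fragments scaled to transcript length and library depth) of the 6 input libraries, and the IP libraries enter only through the authors' table of ac4C peaks. The FPKM steps corresponded to 24290219, 30159427 and 22201704 fragments in listed genes of the cisplatin libraries and to 21583201, 21900044 and 20682920 in the control libraries. Of the list of epithelial and mesothelial markers, 10 of 11 were in the table and 9 reached 1 FPKM in every library, with sums of 3564 to 3953 FPKM in cisplatin and 2467 to 2509 FPKM in control libraries. Of these 9 markers, 5 were called higher and 3 lower (Wt1, Upk3b and Cdh2), among them Wt1 with 12.4 ± 0.598 FPKM in cisplatin and 45.1 ± 1.08 FPKM in control libraries. None of 5 leukocyte and 3 endothelial markers was listed in the table, and 2 of 3 fibroblast markers were listed, with sums of 11.1 to 12.7 FPKM in cisplatin and 18.9 to 19.8 FPKM in control libraries. The part of these marker differences in the results below was not tested.

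Several partner genes moved in opposite directions after cisplatin, and promoters are shown for 2 such pairs and for a pair that changed by unequal amounts. Both directions were common: at a limma adjusted p under 0.05, 40.1% of all genes tested were higher and 41.1% lower. The sequences are from RefSeq (assembly GRCm38.p6, the assembly behind mm10). Each line gives the 150 bases before the annotated transcription start, 5′ to 3′ on the gene's own strand, and capitals mark matches, on either strand, to any of 6 motifs: CACGTG (the E-box), TATAAA (the TATA box), GGGCGG (the GC box), CCAAT (the CCAAT box), CCGGAAG (an ETS-type site) and TGACGTCA (the CRE). The pair Gtf2f1 (chr17:57011289-57011438, minus strand) and Gtf2f2 (chr14:76010866-76011015, minus strand) encodes TFIIF. The pair Taf1a (chr1:183388735-183388884, plus strand, the more upstream of 2 listed starts) and Taf1b (chr12:24498431-24498580, plus strand) encodes SL1 subunits. The pair Polr3g (chr13:81711014-81711163, minus strand) and Polr3gl (chr3:96594182-96594331, minus strand) encodes alternative subunits of polymerase III.
Gtf2f1: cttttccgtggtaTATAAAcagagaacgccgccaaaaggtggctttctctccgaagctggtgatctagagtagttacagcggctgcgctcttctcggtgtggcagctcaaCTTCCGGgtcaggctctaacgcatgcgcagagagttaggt
Gtf2f2: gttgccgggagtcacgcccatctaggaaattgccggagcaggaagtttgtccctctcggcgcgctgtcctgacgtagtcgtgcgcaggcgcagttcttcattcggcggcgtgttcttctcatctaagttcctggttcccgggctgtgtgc
Taf1a: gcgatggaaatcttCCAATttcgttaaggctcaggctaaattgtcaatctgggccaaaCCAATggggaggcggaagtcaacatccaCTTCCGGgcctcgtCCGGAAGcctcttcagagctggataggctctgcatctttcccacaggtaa
Taf1b: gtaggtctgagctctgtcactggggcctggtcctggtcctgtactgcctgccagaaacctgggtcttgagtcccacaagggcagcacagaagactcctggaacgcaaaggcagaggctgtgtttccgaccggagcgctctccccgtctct
Polr3g: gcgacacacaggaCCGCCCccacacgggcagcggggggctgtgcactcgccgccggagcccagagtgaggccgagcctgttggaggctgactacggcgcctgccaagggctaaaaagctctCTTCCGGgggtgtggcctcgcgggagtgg
Polr3gl: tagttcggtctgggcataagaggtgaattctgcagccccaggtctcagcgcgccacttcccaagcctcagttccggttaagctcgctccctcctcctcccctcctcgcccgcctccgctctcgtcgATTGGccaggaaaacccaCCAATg
In these stretches Gtf2f1 had TATAAA beginning 137 bases before the start and an ETS-type match (as CTTCCGG) beginning 40 bases before it. The listed start lies inside the RefSeq span of Gtf2f1 (chr17:57003401-57011394), and so does the ETS-type match, while TATAAA lies upstream of the span. Taf1a had CCAAT beginning 136 and 92 bases before the start and ETS-type matches, one on each strand, beginning 64 and 50 bases before it. Gtf2f2 and Taf1b had none of the 6 motifs there. Polr3g had the GC box (as CCGCCC) at 137 and an ETS-type match at 29 bases, while Polr3gl had CCAAT matches at 24 bases (as ATTGG) and at 6 bases.

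A RefSeq promoter was matched by symbol for 62 of the 72 genes. In the 250 bases before the start, searched separately for each motif so that matches could overlap, CCGGAAG was present in 32.3% of the 62 genes and in 17.4% of the 7925 tested protein-coding genes that have a promoter in the same table. CACGTG was present in 12 of the 62 (19.4%) and in 10.4% of the 7925, and TATAAA in 16.1% and 7.14%. GGGCGG was present in 58.1% of the 62 and in 67.2% of the 7925, CCAAT in 33.9% and 40.9%, and TGACGTCA in 4.84% and 3.17%. By direction of the RNA, CACGTG was found in 8 of 35 higher and 3 of 18 lower genes, and CCGGAAG in 11 of 35 higher and 7 of 18 lower genes. These are matches of letters and no measure of binding.

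In the input RNA, 71 of the 72 genes reached 1 FPKM in 3 or more libraries, the condition for testing. Of these, 40 were higher and 20 lower after cisplatin at a limma adjusted p under 0.05. Across all 11449 genes tested, 40.1% were called higher and 41.1% lower, so lower genes were a smaller and higher genes a larger share of the 71 than of all genes, a difference that was not tested. The median log2 change was 0.26 over the 71 genes and -0.003 over all genes tested, on the scale of log2(FPKM + 1), cisplatin minus control, which understates changes of genes at low levels. A change of at least 2-fold on that scale was seen in 10 higher and 5 lower genes, and over all genes in 10.8% (higher) and 13.1% (lower). The 3 cisplatin values lay wholly above the 3 control values in 42 genes and wholly below in 20, while groups did not overlap in either direction in 84.2% of all genes tested. Levels are given as mean ± SD over 3 libraries per group, and log2 changes as value ± standard error (SE). With 3 against 3 libraries an exact two-sided permutation test of a single gene cannot go below p = 0.1. FPKM is a share of each library's RNA, so fewer cells expressing a gene and less of its RNA per cell cannot be told apart.

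**Figure D1:**
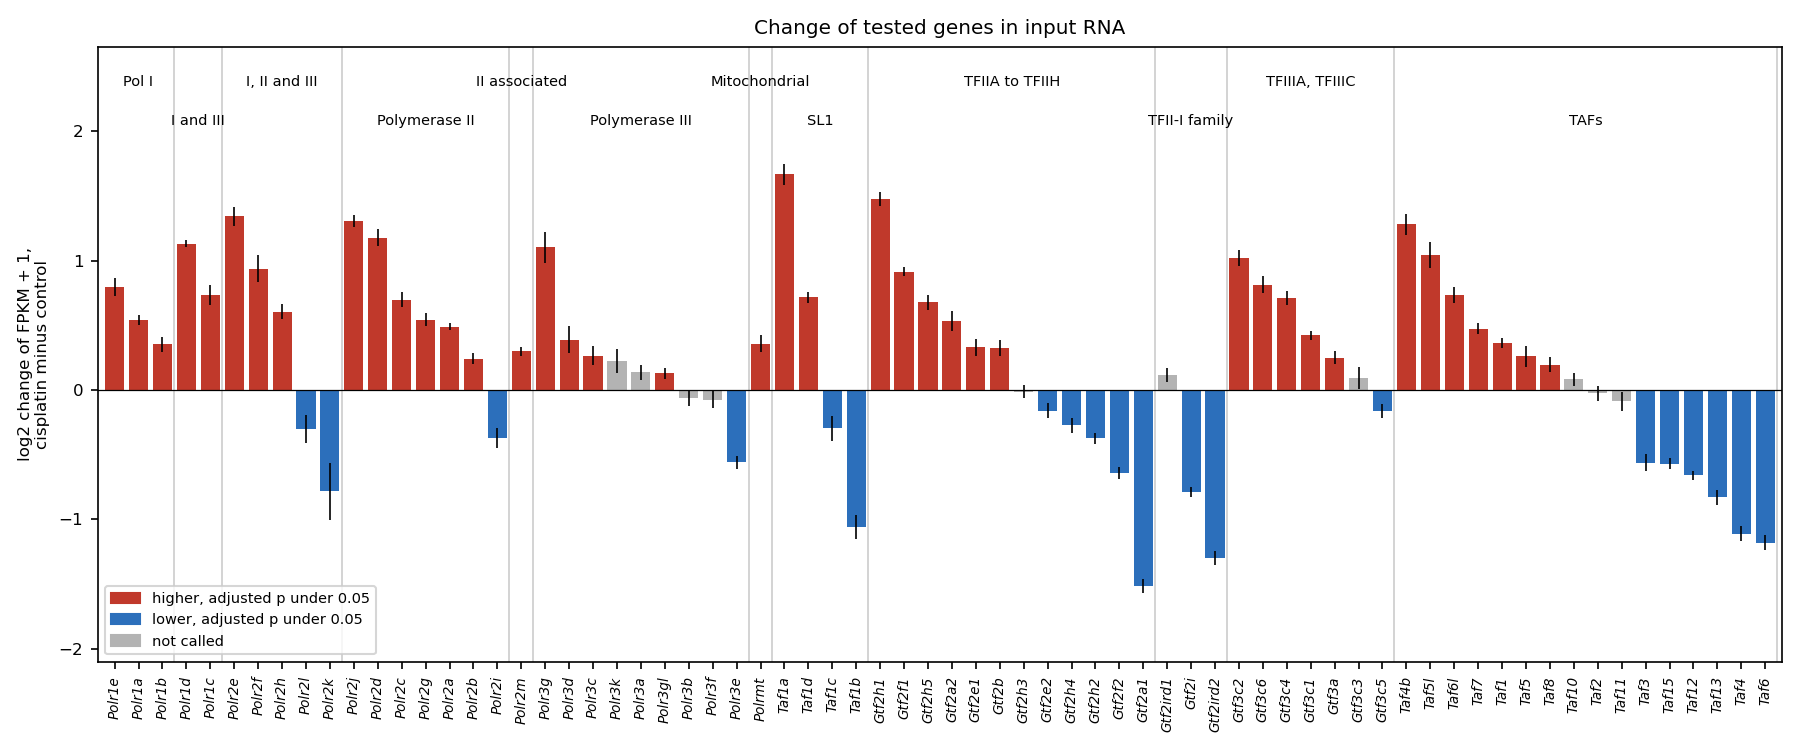
Log2 change of FPKM + 1 in input RNA, cisplatin minus control, for the tested genes named here, ordered by complex (horizontal axis) with SE as error bars, in limma; red bars are genes called higher, blue bars lower and grey bars not called at an adjusted p of 0.05. Genes of polymerases I and II lie mostly above 0, while SL1, TFIIA to TFIIH and the TAFs hold both directions.

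Among the subunits found in a single polymerase, those of polymerase II were higher after cisplatin in all but 1 gene and those of polymerase III were mixed. The counts by group below stand beside 40.1% higher and 41.1% lower over all genes tested. All 3 genes of polymerase I that the naming rule takes were higher, with a median log2 change of 0.54. Of 7 genes of polymerase II, 6 were higher and 1 was lower, with a median of 0.54. Of 10 genes of polymerase III, 4 were higher, 1 was lower and 5 were not called, with a median of 0.13. In each cisplatin library, the median deviation of these genes from the control mean was 0.49 to 0.59 (log2) for polymerase I, 0.53 to 0.61 for polymerase II and 0.098 to 0.15 for polymerase III, so polymerase III had the lowest median in all 3 libraries. With each library rescaled to a common sum, polymerase III had 2 higher and 2 lower genes. These medians rest on 3, 7 and 10 genes, and under quantile normalization the medians were 0.38, 0.37 and 0.12.

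**Figure D2:**
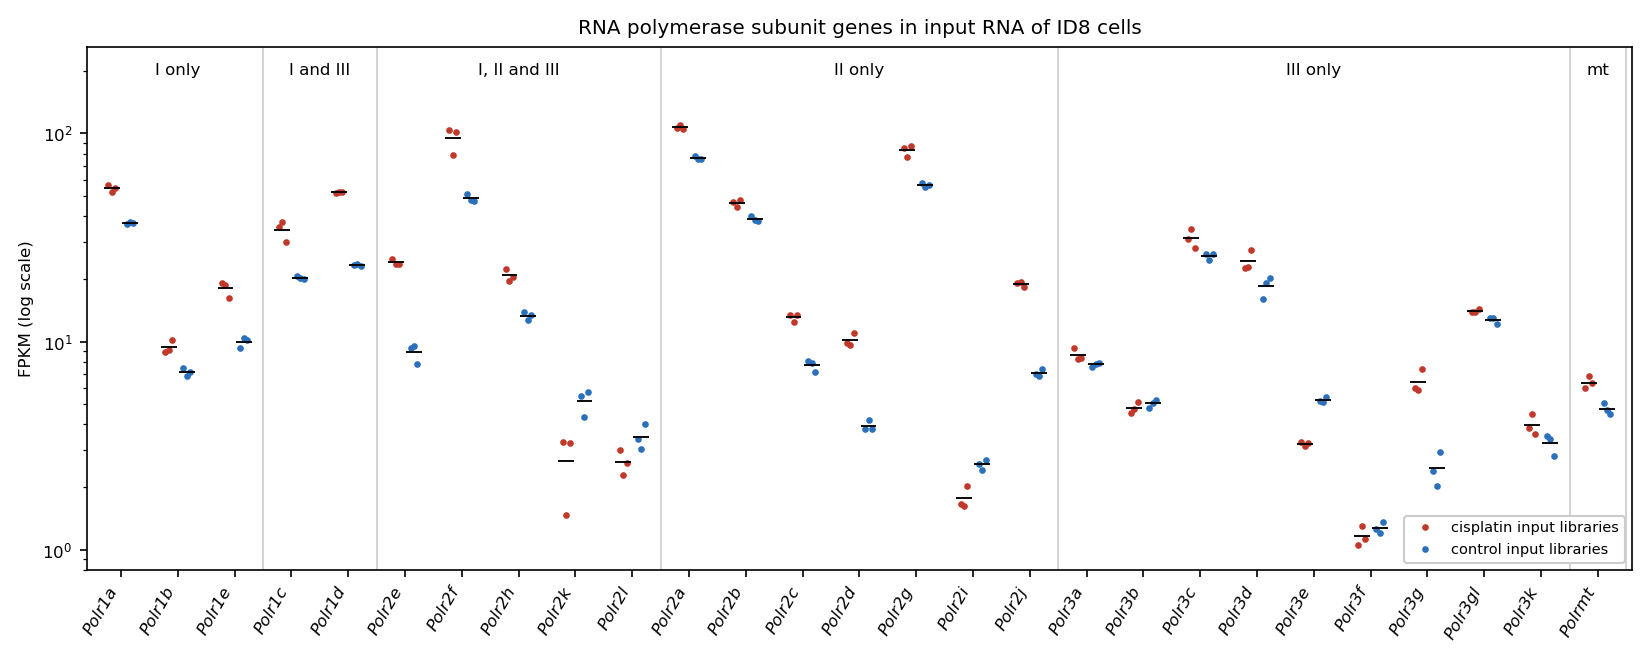
FPKM (log axis) of the polymerase subunit genes named here in the 3 cisplatin (red, left) and 3 control (blue, right) input libraries, with a bar at each group mean; genes are grouped by the polymerase that holds the subunit (mt, mitochondrial). Polr2a, Polr2f and Polr2g are the highest genes, and the subunits of polymerase III alone lie at or under 34.7 FPKM.

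Polr1a, the largest and catalytic subunit of polymerase I, had 56.3, 52.4 and 54.4 FPKM in cisplatin libraries, against 36.5, 37.5 and 37.1 FPKM in control libraries. All cisplatin values were above all control values (log2 change 0.54 ± 0.036, limma adjusted p = 5.55e-06). Polr1b, the second-largest subunit, had 8.93, 9.15 and 10.1 FPKM in cisplatin libraries, against 7.45, 6.85 and 7.12 FPKM in control libraries, again without overlap (log2 change 0.35 ± 0.060, limma adjusted p = 9.76e-04). The smaller subunit gene Polr1e had 19.1, 18.6 and 16.3 FPKM in cisplatin libraries, against 9.32, 10.4 and 10.1 FPKM in control libraries, the widest change of the 3 (log2 change 0.79 ± 0.070, limma adjusted p = 2.55e-05). Subunits of polymerase I that carry older names were read from the list of other transcription genes. Cd3eap, which encodes the partner of the Polr1e protein, had 24.0, 21.8 and 21.6 FPKM in cisplatin libraries, against 10.3, 10.7 and 10.5 FPKM in control libraries (log2 change 1.03 ± 0.050, limma adjusted p = 1.30e-06). Twistnb, of the stalk, had 6.86 ± 0.937 FPKM in cisplatin and 4.29 ± 0.189 FPKM in control libraries (log2 change 0.57 ± 0.088, limma adjusted p = 6.21e-04). Znrd1, a small subunit that acts in transcript cleavage, had 12.4, 10.6 and 10.4 FPKM in cisplatin libraries, against 10.7, 11.04 and 12.7 FPKM in control libraries. Its groups overlapped and it was not called (log2 change -0.046 ± 0.085, limma adjusted p = 0.633), unlike the other subunit genes of polymerase I given here.

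Polr2a, the largest subunit of polymerase II, whose C-terminal repeats carry the phosphorylation marks of the transcription cycle, had 107, 110.3 and 105 FPKM in cisplatin libraries, against 77.4, 75.6 and 75.6 FPKM in control libraries. The groups were separate and narrow (log2 change 0.49 ± 0.031, limma adjusted p = 4.22e-06). Polr2b, the second-largest subunit, had 46.6, 44.3 and 47.7 FPKM in cisplatin libraries, against 40.2, 38.4 and 38.0 FPKM in control libraries (log2 change 0.24 ± 0.040, limma adjusted p = 8.91e-04). Its change was the smallest among the higher genes of the enzyme, and under quantile normalization it was 0.077 and no longer called. Polr2j and Polr2c form the assembly platform of the enzyme: Polr2j had 19.2, 19.4 and 18.2 FPKM in cisplatin libraries, against 7.01, 6.83 and 7.35 FPKM in control libraries (log2 change 1.31 ± 0.046, limma adjusted p = 3.82e-07). Polr2c had 13.4, 12.5 and 13.4 FPKM in cisplatin libraries, against 8.08, 7.89 and 7.15 FPKM in control libraries (log2 change 0.70 ± 0.057, limma adjusted p = 1.77e-05). Both platform genes were higher in every cisplatin library, by unequal amounts. Polr2d and Polr2g encode the stalk, a pair that binds the body of the enzyme and the emerging RNA. Polr2d had 9.86, 9.59 and 11.1 FPKM in cisplatin libraries, against 3.797, 4.20 and 3.82 FPKM in control libraries (log2 change 1.18 ± 0.067, limma adjusted p = 2.78e-06). Polr2g had 85.0, 76.7 and 86.7 FPKM in cisplatin libraries, against 57.5, 55.1 and 56.6 FPKM in control libraries (log2 change 0.54 ± 0.050, limma adjusted p = 3.31e-05). The single lower gene was Polr2i, which encodes a small subunit that acts in start site choice and transcript cleavage, with 1.77 ± 0.219 FPKM in cisplatin and 2.57 ± 0.147 FPKM in control libraries (log2 change -0.37 ± 0.076, limma adjusted p = 0.00265). The adjusted p of Polr2i in the authors' deposited table was 0.0745. Polr2m, which encodes a protein (Gdown1) bound to a fraction of polymerase II, had 40.3 ± 0.329 FPKM in cisplatin and 32.6 ± 1.27 FPKM in control libraries (log2 change 0.30 ± 0.037, limma adjusted p = 1.71e-04).

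For polymerase III, the catalytic subunits were not called. Polr3a, the largest subunit, had 9.33, 8.28 and 8.33 FPKM in cisplatin libraries, against 7.55, 7.83 and 7.90 FPKM in control libraries, with cisplatin values all above control values but a change that missed the threshold (log2 change 0.14 ± 0.056, limma adjusted p = 0.0552). It passed under quantile normalization and without cisplatin replicate 2 or 3. Polr3b, the second-largest subunit, had 4.52, 4.72 and 5.13 FPKM in cisplatin libraries, against 4.81, 5.06 and 5.26 FPKM in control libraries, and the groups overlapped (log2 change -0.062 ± 0.061, limma adjusted p = 0.371). The ratio of Polr1a to Polr3a was 6.30 ± 0.248 in cisplatin libraries and 4.78 ± 0.0710 in control libraries. The ratio of Polr2a to Polr3a was 12.5 ± 0.953 in cisplatin and 9.82 ± 0.377 in control libraries. The groups overlapped in neither ratio (exact two-sided permutation p = 0.1 each, 0.118 after Benjamini-Hochberg adjustment over the 13 ratios computed). The ratio of Polr2a to Polr1a was 1.98 ± 0.109 in cisplatin and 2.06 ± 0.0555 in control libraries, with overlap (exact two-sided permutation p = 0.3, raw and adjusted). These are ratios of FPKM, a measure per length.

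The subunit genes Polr3g and Polr3gl are paralogues, and a polymerase III molecule holds the product of one or the other. Polr3g, the form known from embryonic stem cells and tumour cells, had 5.98, 5.86 and 7.38 FPKM in cisplatin libraries, against 2.40, 2.02 and 2.96 FPKM in control libraries (log2 change 1.10 ± 0.12, limma adjusted p = 8.43e-05). Polr3gl, the form of most differentiated cells, had 13.8, 13.8 and 14.3 FPKM in cisplatin libraries, against 13.0, 13.0 and 12.1 FPKM in control libraries (log2 change 0.13 ± 0.044, limma adjusted p = 0.0282). Every cisplatin value of Polr3g was above every control value, and its gap was far wider than that of Polr3gl, whose call was lost in 8 of the alternatives tried. The ratio of Polr3g to Polr3gl was 0.433, 0.424 and 0.515 in the cisplatin libraries, against 0.184, 0.155 and 0.245 in the control libraries, so Polr3gl had the higher level in both groups. The promoters of both genes are printed above. Polr3c, a further subunit of the initiation subcomplex that holds Polr3g, had 31.2, 34.7 and 28.0 FPKM in cisplatin libraries, against 26.3, 24.6 and 26.5 FPKM in control libraries (log2 change 0.27 ± 0.075, limma adjusted p = 0.0125). Its call was lost with a common sum and under quantile normalization. Polr3f, the third subunit there, had 1.16 ± 0.123 FPKM in cisplatin and 1.27 ± 0.0782 FPKM in control libraries (log2 change -0.077 ± 0.067, limma adjusted p = 0.313). Polr3d and Polr3e encode a pair of TFIIF-like subunits that differed in direction. Polr3d had 22.7, 22.9 and 27.6 FPKM in cisplatin libraries, against 15.9, 19.1 and 20.2 FPKM in control libraries (log2 change 0.39 ± 0.10, limma adjusted p = 0.00968). Polr3e, the lower gene of the enzyme, had 3.30, 3.14 and 3.24 FPKM in cisplatin libraries, against 5.17, 5.12 and 5.40 FPKM in control libraries (log2 change -0.56 ± 0.051, limma adjusted p = 3.25e-05). The groups were separate for both. Polr3k, a small subunit used in termination, was not called. Its level was 3.98 ± 0.446 FPKM in cisplatin and 3.25 ± 0.377 FPKM in control libraries, and Polr3k passed the threshold without cisplatin replicate 3, under quantile normalization and with the replicate block (limma adjusted p = 0.0378, 0.0165 and 0.0294). Crcp, which encodes a stalk subunit of the enzyme and was read from the list of other genes, had 30.6 ± 0.910 FPKM in cisplatin and 20.2 ± 1.51 FPKM in control libraries (log2 change 0.58 ± 0.057, limma adjusted p = 4.79e-05).

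Of the subunits shared between enzymes, 5 of 7 were higher and 2 lower, with a median log2 change of 0.73. Over all genes tested, 40.1% were higher and 41.1% lower. Polr1c and Polr1d, shared by polymerases I and III, form the assembly platform there. Polr1d had 52.0, 52.5 and 52.2 FPKM in cisplatin libraries, against 23.4, 23.5 and 22.9 FPKM in control libraries, and the cisplatin libraries differed by less than 1 FPKM (log2 change 1.13 ± 0.029, limma adjusted p = 1.24e-07). Polr1c had 35.4, 37.7 and 30.2 FPKM in cisplatin libraries, against 20.6, 20.2 and 19.96 FPKM in control libraries (log2 change 0.73 ± 0.076, limma adjusted p = 6.07e-05). Among the subunits of all nuclear polymerases, Polr2e had 24.8, 23.5 and 23.7 FPKM in cisplatin libraries, against 9.34, 9.55 and 7.77 FPKM in control libraries (log2 change 1.34 ± 0.074, limma adjusted p = 2.36e-06). Polr2f had 104, 78.3 and 102 FPKM in cisplatin libraries, against 51.0, 47.7 and 47.4 FPKM in control libraries, with cisplatin replicate 2 lower than the other two but above all control values (log2 change 0.94 ± 0.10, limma adjusted p = 9.64e-05). Polr2h had 22.4, 19.6 and 20.4 FPKM in cisplatin libraries, against 13.8, 12.6 and 13.5 FPKM in control libraries (log2 change 0.61 ± 0.059, limma adjusted p = 4.54e-05). All of these genes were separate between the groups. The remaining shared genes, the small zinc-binding subunits Polr2k and Polr2l, were the lower ones. Polr2k had 3.30, 1.47 and 3.27 FPKM in cisplatin libraries, against 5.46, 4.34 and 5.70 FPKM in control libraries (log2 change -0.78 ± 0.22, limma adjusted p = 0.0121), with cisplatin replicate 2 at less than any other library. Polr2l had 2.64 ± 0.368 FPKM in cisplatin and 3.49 ± 0.484 FPKM in control libraries (log2 change -0.30 ± 0.11, limma adjusted p = 0.0303). Its call was lost without cisplatin replicate 2 or 3 or control replicate 1 or 3, under quantile normalization and in the authors' deposited table. The value of Polr2k is uncertain because the pseudogene Polr2k-ps, a copy of the gene, had 0.235, 0 and 0 FPKM in the cisplatin libraries, against 13.9, 11.7 and 11.1 FPKM in the control libraries. That is 1 fragment in all cisplatin and 144 fragments in all control libraries. How the authors' counting divided reads between Polr2k and its copy is not given. Counting each polymerase with its shared subunits, 8 of 10 genes of polymerase I, 9 of 12 of polymerase II and 9 of 17 of polymerase III were higher. Polrmt, the mitochondrial RNA polymerase, had 5.96, 6.79 and 6.31 FPKM in cisplatin libraries, against 5.07, 4.67 and 4.50 FPKM in control libraries, with all cisplatin values above control (log2 change 0.36 ± 0.066, limma adjusted p = 0.00155).

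Of the factors that act with polymerase I, SL1, the TBP complex at the ribosomal RNA gene promoter, had subunit genes that moved both ways. Taf1a had 12.3, 12.3 and 11.5 FPKM in cisplatin libraries, against 3.01, 3.57 and 2.78 FPKM in control libraries, the largest change of all 71 genes on the log2(FPKM + 1) scale (log2 change 1.67 ± 0.078, limma adjusted p = 1.18e-06). In the authors' deposited table Gtf3c2 had a larger change (log2 fold change 2.10, against 1.95 for Taf1a). Taf1d had 17.3, 16.9 and 18.3 FPKM in cisplatin libraries, against 10.4, 10.001 and 10.4 FPKM in control libraries (log2 change 0.72 ± 0.044, limma adjusted p = 3.76e-06). Taf1b, whose product resembles TFIIB, had 1.35, 1.31 and 1.05 FPKM in cisplatin libraries, against 3.36, 3.48 and 4.17 FPKM in control libraries (log2 change -1.06 ± 0.090, limma adjusted p = 2.13e-05). Taf1c had 0.920, 1.35 and 1.31 FPKM in cisplatin libraries, against 1.83, 1.69 and 1.55 FPKM in control libraries (log2 change -0.30 ± 0.094, limma adjusted p = 0.0201). Taf1a and Taf1d were thus higher and Taf1b and Taf1c lower in every cisplatin library, and the call of Taf1c was lost without control replicate 1 or 2 and under quantile normalization. The ratio of Taf1a to Taf1b was 9.15, 9.41 and 10.9 in the cisplatin libraries, against 0.898, 1.03 and 0.666 in the control libraries. Of the other polymerase I factors, Rrn3, which ties the enzyme to SL1, had 20.7, 21.7 and 22.9 FPKM in cisplatin libraries, against 9.97, 10.1 and 9.95 FPKM in control libraries (log2 change 1.05 ± 0.046, limma adjusted p = 8.57e-07). Ubtf, the architectural factor of ribosomal genes, had 27.5 ± 1.77 FPKM in cisplatin and 32.2 ± 0.749 FPKM in control libraries (log2 change -0.22 ± 0.051, limma adjusted p = 0.00507).

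Of the 12 genes of TFIIA, TFIIB, TFIIE, TFIIF and TFIIH, 6 were higher, 5 lower and 1 was not called, with a median log2 change of 0.16. Both directions were also common over all genes tested (40.1% higher, 41.1% lower). In TFIIA, which steadies TBP on DNA, the directions were opposite. Gtf2a1, which encodes the alpha and beta chains, had 2.08, 2.10 and 2.03 FPKM in cisplatin libraries, against 7.94, 7.36 and 8.02 FPKM in control libraries, and on the log2(FPKM + 1) scale it was the most lowered gene of the 71 (log2 change -1.51 ± 0.055, limma adjusted p = 4.30e-07). In the authors' deposited table Gtf2ird2 was slightly lower (log2 fold change -1.92, against -1.91 for Gtf2a1). Gtf2a2, the gamma chain, had 8.21, 8.58 and 9.46 FPKM in cisplatin libraries, against 6.38, 5.49 and 5.39 FPKM in control libraries (log2 change 0.53 ± 0.076, limma adjusted p = 4.03e-04). Neither TFIIA gene overlapped between the groups. TFIIF, which escorts polymerase II to the promoter, showed the same kind of split. Gtf2f1, its larger chain, had 155, 158 and 147 FPKM in cisplatin libraries, against 80.4, 82.1 and 79.9 FPKM in control libraries (log2 change 0.91 ± 0.036, limma adjusted p = 5.54e-07). Gtf2f2, its smaller chain, had 30.8, 31.9 and 34.7 FPKM in cisplatin libraries, against 52.2, 51.3 and 49.98 FPKM in control libraries (log2 change -0.64 ± 0.048, limma adjusted p = 1.03e-05). The ratio of Gtf2f1 to Gtf2f2 was 5.01, 4.96 and 4.24 in the cisplatin libraries, against 1.54, 1.60 and 1.60 in the control libraries. For Gtf2a2 to Gtf2a1 the ratio was 3.94, 4.08 and 4.65 in the cisplatin libraries, against 0.803, 0.746 and 0.671 in the control libraries. Gtf2b, the single TFIIB gene, had 5.50 ± 0.308 FPKM in cisplatin and 4.19 ± 0.241 FPKM in control libraries (log2 change 0.33 ± 0.062, limma adjusted p = 0.00182). In TFIIE, Gtf2e1 had 3.32 ± 0.0306 FPKM in cisplatin and 2.45 ± 0.217 FPKM in control libraries (log2 change 0.33 ± 0.064, limma adjusted p = 0.00214). Gtf2e2 had 15.8 ± 1.15 FPKM in cisplatin and 17.8 ± 0.604 FPKM in control libraries (log2 change -0.16 ± 0.057, limma adjusted p = 0.0322), and each library left out ended this call, except cisplatin replicate 3, as did the replicate block and the authors' deposited table.

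**Figure D3:**
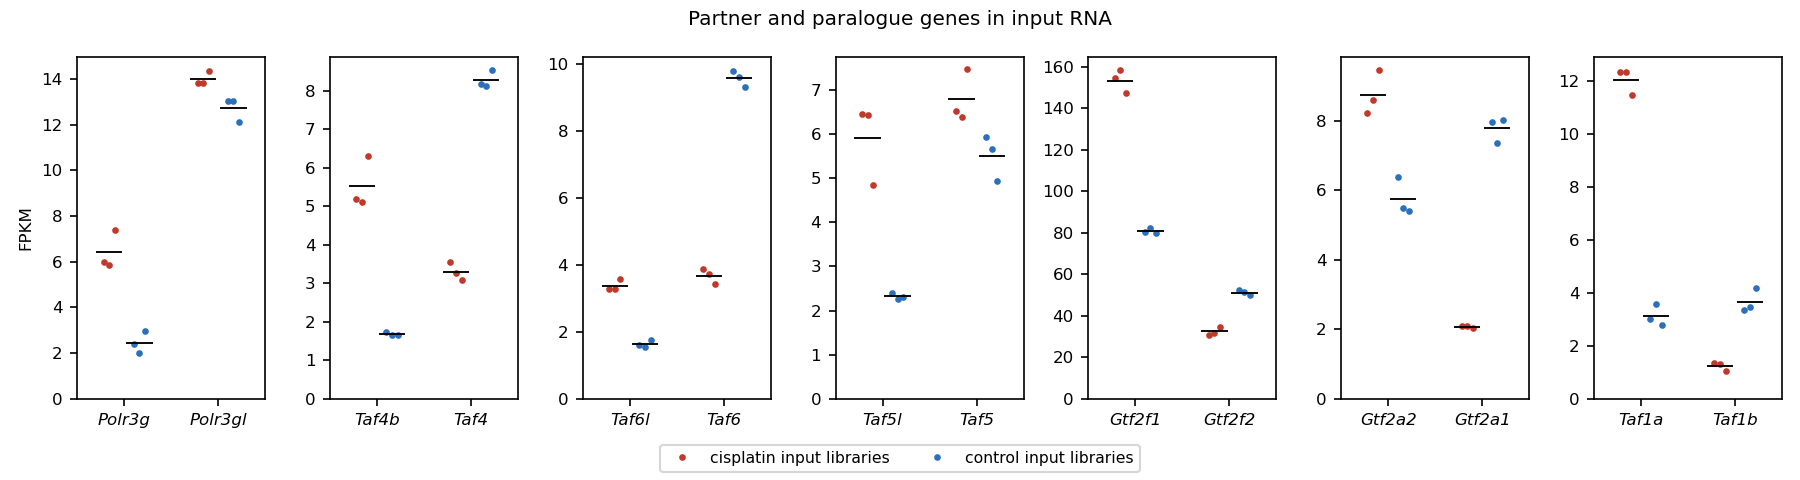
FPKM of 7 pairs of partner or paralogue genes in the 3 cisplatin (red, left) and 3 control (blue, right) input libraries, with a bar at each group mean and a linear axis from 0 per panel. Each pair is drawn with the gene of the greater log2 change first, and the TFIIF and TFIIA pairs were chosen with their values seen. The first gene was higher after cisplatin in all libraries, and the second was lower in 5 pairs and higher, by less, for Polr3gl and Taf5. Over all genes tested, 40.1% were higher and 41.1% lower.

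TFIIH holds a core of helicases and structural subunits, which also acts in nucleotide excision repair, and a kinase module that phosphorylates polymerase II. Gtf2h1, a structural core subunit, had 37.9, 38.7 and 43.5 FPKM in cisplatin libraries, against 13.8, 13.6 and 13.9 FPKM in control libraries (log2 change 1.47 ± 0.054, limma adjusted p = 4.56e-07). Gtf2h5, the smallest core subunit, which is needed for repair, had 12.2, 12.9 and 11.5 FPKM in cisplatin libraries, against 6.93, 7.73 and 7.12 FPKM in control libraries (log2 change 0.68 ± 0.059, limma adjusted p = 2.37e-05). Both were above control in every cisplatin library. The other core genes named Gtf2h were lower or not called. Gtf2h2 had 8.01 ± 0.173 FPKM in cisplatin and 10.7 ± 0.335 FPKM in control libraries (log2 change -0.37 ± 0.044, limma adjusted p = 1.26e-04), and Gtf2h4 had 4.43 ± 0.197 FPKM in cisplatin and 5.56 ± 0.302 FPKM in control libraries (log2 change -0.27 ± 0.059, limma adjusted p = 0.00353). Gtf2h3 was not called at 6.29 ± 0.275 FPKM in cisplatin and 6.36 ± 0.125 FPKM in control libraries. The helicase genes, which are not named Gtf2h, were higher. Ercc3, the XPB translocase, had 24.97, 24.6 and 23.4 FPKM in cisplatin libraries, against 9.42, 8.34 and 9.99 FPKM in control libraries (log2 change 1.31 ± 0.065, limma adjusted p = 1.50e-06). Ercc2, the XPD helicase, had 8.56 ± 0.193 FPKM in cisplatin and 5.05 ± 0.202 FPKM in control libraries (log2 change 0.66 ± 0.049, limma adjusted p = 1.02e-05). All 3 genes of the kinase module, a group added with its values seen, were lower, as were 41.1% of all genes tested. Cdk7, the kinase, had 2.20, 2.16 and 1.80 FPKM in cisplatin libraries, against 4.34, 3.83 and 4.09 FPKM in control libraries (log2 change -0.74 ± 0.075, limma adjusted p = 5.70e-05). Ccnh, its cyclin, had 3.34, 2.79 and 3.48 FPKM in cisplatin libraries, against 7.69, 8.004 and 7.87 FPKM in control libraries (log2 change -1.08 ± 0.072, limma adjusted p = 6.09e-06). Mnat1, the assembly factor, named after its values were seen, had 3.21 ± 0.406 FPKM in cisplatin and 5.16 ± 0.199 FPKM in control libraries (log2 change -0.55 ± 0.080, limma adjusted p = 4.22e-04). Tbp, the TATA-binding protein common to SL1, TFIID and TFIIIB, had 0.670, 0.445 and 0.558 FPKM in cisplatin libraries, against 1.84, 1.69 and 1.66 FPKM in control libraries, lower in all cisplatin libraries (log2 change -0.81 ± 0.072, limma adjusted p = 2.76e-05). It entered the test through the control libraries alone.

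The TFII-I family, DNA-binding proteins that are not part of the preinitiation complex proper, had 2 lower genes of 3. Lower genes made up 41.1% of all genes tested. Gtf2i had 15.6, 16.8 and 16.5 FPKM in cisplatin libraries, against 29.4, 28.7 and 28.3 FPKM in control libraries (log2 change -0.79 ± 0.040, limma adjusted p = 1.57e-06). Gtf2ird2 had 1.12, 1.11 and 1.08 FPKM in cisplatin libraries, against 4.31, 4.16 and 4.01 FPKM in control libraries (log2 change -1.30 ± 0.055, limma adjusted p = 7.55e-07). Gtf2ird1 was not called at 9.89 ± 0.319 FPKM in cisplatin and 9.05 ± 0.586 FPKM in control libraries (log2 change 0.12 ± 0.055, limma adjusted p = 0.0867), and it passed the threshold without control replicate 1 (limma adjusted p = 0.0306). Both lower genes were separate between the groups.

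Among the 16 tested genes of the TFIID and related TAFs, 7 were higher, 6 lower and 3 not called, with a median log2 change of 0.029. The shares over all genes tested were 40.1% higher and 41.1% lower. Of the paralogue pairs, Taf4 and Taf4b and Taf6 and Taf6l moved in opposite directions, while Taf5 and Taf5l were both higher. Taf4, a core TFIID scaffold, had 3.55, 3.27 and 3.09 FPKM in cisplatin libraries, against 8.18, 8.13 and 8.54 FPKM in control libraries (log2 change -1.11 ± 0.058, limma adjusted p = 1.88e-06). Taf4b, its paralogue, known for its part in ovarian follicle and germ cell development, had 5.20, 5.11 and 6.31 FPKM in cisplatin libraries, against 1.73, 1.66 and 1.67 FPKM in control libraries (log2 change 1.28 ± 0.080, limma adjusted p = 4.27e-06). The order of the 2 genes turned round: the ratio of Taf4b to Taf4 was 1.46, 1.57 and 2.04 in the cisplatin libraries, against 0.211, 0.205 and 0.195 in the control libraries. Taf6, a histone-fold subunit of TFIID, had 3.87, 3.71 and 3.41 FPKM in cisplatin libraries, against 9.78, 9.59 and 9.31 FPKM in control libraries (log2 change -1.18 ± 0.055, limma adjusted p = 1.18e-06). Taf6l, its paralogue in the SAGA coactivator, had 3.27, 3.28 and 3.58 FPKM in cisplatin libraries, against 1.60, 1.54 and 1.75 FPKM in control libraries (log2 change 0.73 ± 0.062, limma adjusted p = 2.16e-05). The ratio of Taf6l to Taf6 was 0.844, 0.885 and 1.05 in the cisplatin libraries, against 0.164, 0.161 and 0.188 in the control libraries. Taf5, a WD40 scaffold of TFIID, had 6.52, 6.39 and 7.49 FPKM in cisplatin libraries, against 5.94, 5.66 and 4.93 FPKM in control libraries (log2 change 0.26 ± 0.082, limma adjusted p = 0.0198). Leaving out cisplatin replicate 3 or control replicate 3, or rescaling to a common sum, ended its call. Taf5l, its paralogue in SAGA, had 6.46, 6.43 and 4.84 FPKM in cisplatin libraries, against 2.41, 2.26 and 2.32 FPKM in control libraries, with replicate 3 the lowest of the cisplatin libraries and still above control (log2 change 1.04 ± 0.10, limma adjusted p = 4.42e-05). The ratio of Taf5l to Taf5 was 0.990, 1.01 and 0.646 in the cisplatin libraries, against 0.405, 0.400 and 0.469 in the control libraries. Taf9b, the paralogue of Taf9, did not pass the filter, at 0.495, 0.456 and 0.531 FPKM in cisplatin libraries, against 0.210, 0.138 and 0.146 FPKM in control libraries. Taf9 and Taf7l, the paralogue of Taf7, were not analysed here.

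Among the other TAFs, Taf1, the largest TFIID subunit, had 27.4 ± 1.15 FPKM in cisplatin and 21.0 ± 0.370 FPKM in control libraries (log2 change 0.36 ± 0.040, limma adjusted p = 9.44e-05). Taf7, which binds Taf1, had 23.4 ± 1.09 FPKM in cisplatin and 16.6 ± 0.0574 FPKM in control libraries (log2 change 0.47 ± 0.042, limma adjusted p = 2.71e-05). Taf8 had 6.58 ± 0.325 FPKM in cisplatin and 5.62 ± 0.332 FPKM in control libraries (log2 change 0.20 ± 0.060, limma adjusted p = 0.0179). The call of Taf8 was lost without cisplatin replicate 1 or control replicate 1 or 2, with a common sum, with voom and in the authors' deposited table. The lower genes included Taf3, which binds trimethylated histone H3 at promoters, with 11.3 ± 0.984 FPKM in cisplatin and 17.1 ± 0.503 FPKM in control libraries (log2 change -0.56 ± 0.062, limma adjusted p = 9.41e-05). Taf12 had 24.5 ± 0.911 FPKM in cisplatin and 39.3 ± 0.543 FPKM in control libraries (log2 change -0.66 ± 0.037, limma adjusted p = 2.55e-06). Another histone-fold subunit, Taf13, had 4.96 ± 0.179 FPKM in cisplatin and 9.60 ± 0.550 FPKM in control libraries (log2 change -0.83 ± 0.056, limma adjusted p = 6.46e-06). Taf15, an RNA-binding protein, had 57.4 ± 3.05 FPKM in cisplatin and 85.5 ± 2.36 FPKM in control libraries (log2 change -0.57 ± 0.045, limma adjusted p = 1.52e-05). Taf2, Taf10 and Taf11 were not called, at log2 changes of -0.026, 0.083 and -0.087.

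For polymerase III, TFIIIA and TFIIIC recognise the internal promoters of 5S ribosomal RNA and transfer RNA genes, and 5 of their 7 genes were higher, 1 was lower and 1 was not called, with a median log2 change of 0.42. Over all genes tested, 40.1% were higher and 41.1% lower. Gtf3c2 had 1.88, 1.92 and 2.04 FPKM in cisplatin libraries, against 0.499, 0.399 and 0.465 FPKM in control libraries (log2 change 1.02 ± 0.059, limma adjusted p = 3.04e-06). It was the 1 gene of the 71 that entered the test through the cisplatin libraries alone, since all its control values were under 1 FPKM, so it had to differ in order to be tested. Gtf3c6 had 14.2, 16.5 and 13.9 FPKM in cisplatin libraries, against 7.77, 8.21 and 8.05 FPKM in control libraries (log2 change 0.81 ± 0.068, limma adjusted p = 1.88e-05). Gtf3c4 had 12.8, 13.6 and 13.4 FPKM in cisplatin libraries, against 8.06, 7.23 and 7.81 FPKM in control libraries (log2 change 0.71 ± 0.052, limma adjusted p = 9.33e-06). Gtf3c1, the largest TFIIIC subunit, which contacts the B box, had 46.4, 44.6 and 43.2 FPKM in cisplatin libraries, against 33.7, 32.7 and 33.0 FPKM in control libraries (log2 change 0.42 ± 0.036, limma adjusted p = 2.25e-05). All cisplatin values of these genes were above control. Gtf3a, the TFIIIA gene, had 25.3 ± 1.53 FPKM in cisplatin and 21.1 ± 0.356 FPKM in control libraries (log2 change 0.25 ± 0.049, limma adjusted p = 0.00209). Gtf3c3 was not called at 6.84 ± 0.832 FPKM in cisplatin and 6.32 ± 0.326 FPKM in control libraries. Gtf3c5 had 7.63 ± 0.448 FPKM in cisplatin and 8.65 ± 0.280 FPKM in control libraries (log2 change -0.16 ± 0.055, limma adjusted p = 0.0272), and its call was lost without cisplatin replicate 1 or 2 or control replicate 2 or 3. Of the TFIIIB genes, Bdp1 had 16.3 ± 1.07 FPKM in cisplatin and 12.3 ± 0.148 FPKM in control libraries (log2 change 0.38 ± 0.052, limma adjusted p = 3.13e-04). Brf1 was not called at 3.58 ± 0.377 FPKM in cisplatin and 4.27 ± 0.390 FPKM in control libraries, nor was Brf2 at 4.94 ± 0.0525 FPKM in cisplatin and 5.06 ± 0.336 FPKM in control libraries. Maf1, the repressor of polymerase III, had 15.4 ± 1.27 FPKM in cisplatin and 20.1 ± 1.05 FPKM in control libraries (log2 change -0.36 ± 0.067, limma adjusted p = 0.00152).

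A list of other transcription genes, which the naming rule does not take, held 83 genes of the table, 82 of them tested, with 42 higher, 22 lower and a median log2 change of 0.22. Of 29 Mediator genes, which link activators to polymerase II, 13 were higher and 9 lower. The shares over all genes tested were 40.1% higher and 41.1% lower. Med18 had 6.48 ± 0.582 FPKM in cisplatin and 0.810 ± 0.276 FPKM in control libraries (log2 change 2.06 ± 0.12, limma adjusted p = 2.84e-06), and Med22, Med11 and Med14 were higher with log2 changes of 1.27, 1.11 and 1.02. Med27 had 1.99 ± 0.509 FPKM in cisplatin and 11.2 ± 0.696 FPKM in control libraries (log2 change -2.05 ± 0.13, limma adjusted p = 4.03e-06), and Med7, Med31 and Med21 were lower with log2 changes of -1.95, -1.38 and -1.01. Med7 and Med31 were under 1 FPKM in every cisplatin library and entered the test through the control libraries alone. Gpn3, a GTPase used in the nuclear import of polymerase II, had 22.8, 26.4 and 23.4 FPKM in cisplatin libraries, against 6.34, 5.21 and 5.60 FPKM in control libraries (log2 change 1.91 ± 0.079, limma adjusted p = 6.89e-07). Leo1, of the PAF1 elongation complex, had 63.5 ± 3.39 FPKM in cisplatin and 30.9 ± 0.787 FPKM in control libraries (log2 change 1.01 ± 0.046, limma adjusted p = 9.75e-07). In mitochondria, the gene of the elongation factor Tefm had 0.361 ± 0.191 FPKM in cisplatin and 3.51 ± 0.287 FPKM in control libraries (log2 change -1.74 ± 0.11, limma adjusted p = 4.67e-06). Tfb1m, which encodes the methyltransferase of the mitochondrial small ribosomal RNA, was near 0 after cisplatin, with 0, 0 and 0.0342 FPKM in cisplatin libraries, against 6.41, 6.75 and 5.81 FPKM in control libraries, while Polrmt was higher. Tefm and Tfb1m, too, entered the test through the control libraries alone.

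The libraries were made strand-specific, but how the authors' counting used strand is not known here. The spans of 13 of the 72 genes overlap another tested gene, among them Gtf2f2, Gtf3a, Polr1e, Polr2b, Polr2c, Polr2i, Polr2k, Taf10, Taf11, Taf1c, Taf1d and Taf6. Reads in the shared stretches of those genes may belong to the partner gene.

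The ac4C peaks came from 1 comparison over all 12 libraries, with no value per library, and the table does not say which treatment a positive difference stands for. The signs below are therefore given as positive or negative, without a treatment. The authors' deposited table held 132 peaks in 51 of the 72 genes. Of the 71 tested genes, 50 had a peak (70.4%), close to the 71.2% of the 10049 tested protein-coding genes. With a filter at 5 FPKM the shares were further apart, at 72.4% of 58 genes of the set and 80.2% of 6810 protein-coding genes. The 51 genes with a peak had a median level of 9.47 FPKM and the 21 without 8.14 FPKM. In position, 59.1% of the 132 peaks were in coding sequence and 22.7% in 3′ untranslated regions, against 54.2% and 31.3% of the peaks of all protein-coding genes of the table. At the authors' adjusted p of 0.05, 67 of the 132 peaks (50.8%) had a positive and 9 (6.82%) a negative difference. Of all 19049 peaks, noncoding genes included, 36.5% were positive and 9.62% negative. Among the peaks of all protein-coding genes of the table these shares were 38.5% and 9.66%. A called peak was found in 34 genes, of which 27 had positive differences alone and 7 both signs, and 0 had negative differences alone. All 34 are among the 71 tested genes (47.9%, with 38.0% positive alone), and over the 10049 protein-coding genes these shares were 45.4% with a called peak, 31.4% positive alone, 7.62% both and 6.39% negative alone. The midpoints of 5 of the 132 peaks lie outside the RefSeq span of their gene, 3 of them in Taf10, 1 in Polr1a and 1 in Polr2c.

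**Figure D4:**
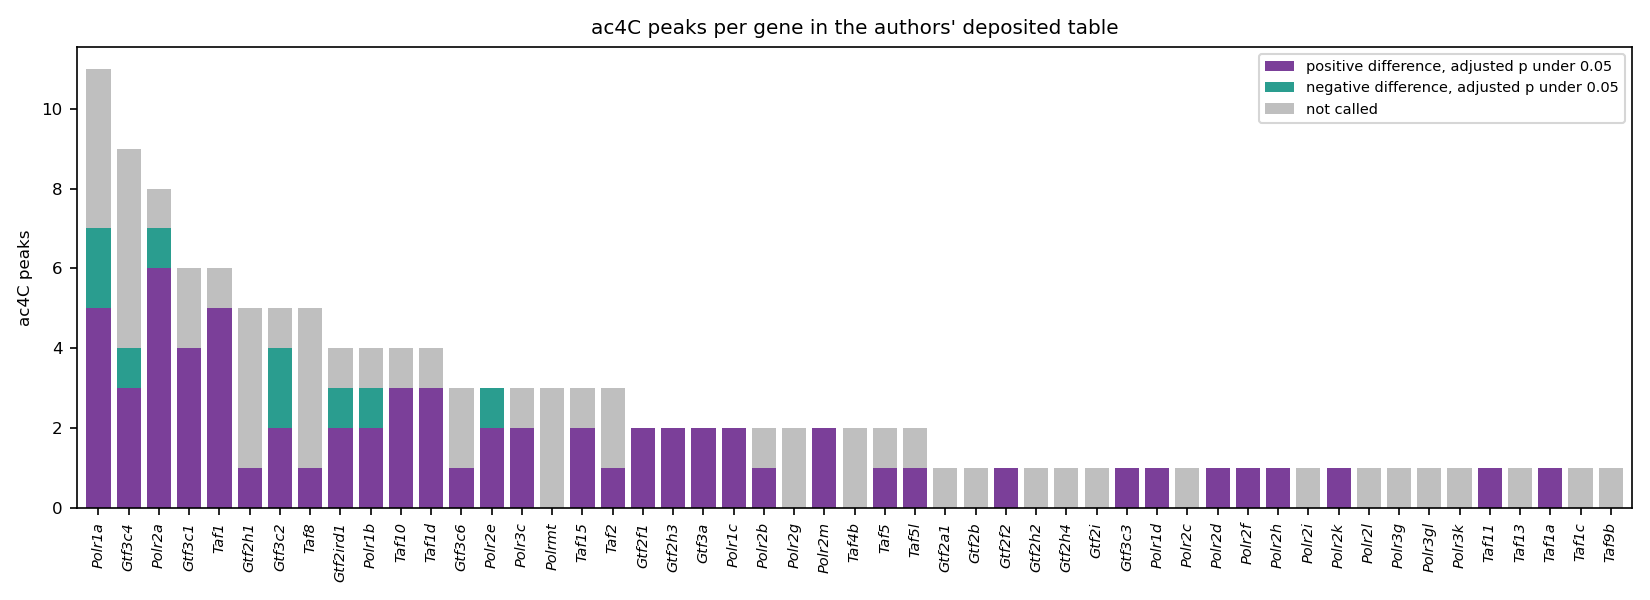
Number of ac4C peaks (vertical axis) in each of the 51 genes with a peak in the authors' deposited table, by the sign of the difference between treatments where its adjusted p is under 0.05; the treatment that a positive sign stands for is not stated in that table. Polr1a, Gtf3c4 and Polr2a hold 11, 9 and 8 peaks.

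By polymerase, the peaks were spread unevenly. The counts stand beside 71.2% of all tested protein-coding genes with a peak. Of the peaks of all protein-coding genes of the table, 38.5% were positive and 9.66% negative. Polymerase I alone had 15 peaks in 2 of its 3 genes, 7 positive and 3 negative. Polymerase II alone had 15 peaks in 6 of 7 genes, 8 positive and 1 negative. The single peak of Polr2c, of the authors' coding class, lies mostly past the end of that gene's RefSeq span, which overlaps Dok4. Polymerase III alone had 6 peaks in 4 of 10 genes, 2 positive and 0 negative, both in Polr3c. The shared subunits had 10 peaks in 7 of 7 genes, 8 positive and 1 negative. Polr3a, Polr3b, Polr3d, Polr3e and Polr3f had no peak, as had Polr1e and Polr2j. These counts describe small groups, and the part of transcript length and level in them was not tested.

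Along Polr1a on chromosome 6 (mm10, outer ends of each peak, which can span introns), the authors' deposited table gave 11 peaks of both signs. In that authors' deposited table the positive ones lay at chr6:71926282-71926691 (coding sequence, log2 difference 4.91, adjusted p = 0.0049), at chr6:71964678-71964887 (coding, 0.734) and chr6:71967939-71972740 (coding, 3.35). Further positive peaks in the authors' deposited table lay at chr6:71976086-71977410 (coding, 4.11, adjusted p = 6.31e-13) and chr6:71978808-71979077 (3′ untranslated region, 2.54). The negative ones of the authors' deposited table lay at chr6:71948416-71949436 (coding, -2.32) and, just past the last positive peak, at chr6:71979137-71979257 (3′ untranslated region, -3.39, adjusted p = 0.0151). Peaks of opposite sign thus stood side by side in 1 gene. The uncalled peaks of Polr1a in the authors' deposited table lay at chr6:71909053-71909203 (5′ untranslated region), chr6:71912655-71915036 and chr6:71954752-71954872 (coding) and chr6:71981685-71981865 (3′ untranslated region, outside the RefSeq span of the gene). Polr1b had 4 peaks in the authors' deposited table, all coding. The positive ones of the authors' deposited table were chr2:129105263-129109245 (2.45) and chr2:129123879-129125397 (7.01, adjusted p = 1e-12), and chr2:129110069-129112738 was not called. The neighbouring peak chr2:129125547-129126055 in the authors' deposited table was negative (-1.46, adjusted p = 0.0145) and had an enrichment of IP over input of 103-fold, the highest of the 4.

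Polr2a, on chromosome 11, had 8 peaks in the authors' deposited table, all in coding sequence. The 6 positive ones in the authors' deposited table lay at chr11:69736311-69736940 (3.89), chr11:69737209-69740307 (1.61), chr11:69741003-69741633 (4.41), chr11:69742503-69743441 (4.62, adjusted p = 5.01e-45), chr11:69743961-69744249 (1.58) and chr11:69745980-69747277 (1.88). The negative peak of the authors' deposited table at chr11:69735667-69735977 (-4.47, adjusted p = 2e-15) lay on the 3′ side of all positive ones, since the gene is on the minus strand. Further in that direction, the uncalled peak at chr11:69734476-69734865 had an enrichment of 41.1-fold in the authors' deposited table. Polr2b had 2 peaks in the authors' deposited table, at chr5:77326600-77326809 (5.09, adjusted p = 1.70e-06) and chr5:77320269-77320389 (not called). In Polr3c the positive peaks of the authors' deposited table lay at chr3:96722562-96723476 (3.64, adjusted p = 3.16e-23) and chr3:96711909-96713539 (1.89). Polr2e, a shared subunit, had both signs in the authors' deposited table, with chr10:80038466-80039735 (3.98) and chr10:80036039-80036189 (-5.13, adjusted p = 5.01e-12).

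Among the factors, the largest differences in the authors' deposited table were in Gtf2f2 at chr14:75995425-76010685 (coding, 7.49, adjusted p = 1.35e-05), in Gtf3c2 at chr5:31156844-31156994 (exon, -6.49, adjusted p = 4.79e-05) and in Gtf3c4 at chr2:28823769-28823949 (3′ untranslated region, -6.46, adjusted p = 1.48e-04). TFIIIC genes held many peaks: Gtf3c4 had 9, Gtf3c1 had 6 and Gtf3c2 had 5, and 3 of the 9 negative peaks of the whole set were in Gtf3c2 and Gtf3c4. Taf1 had 6 peaks, 5 of them positive. The TAFs had 15 positive and 0 negative peaks of 30. The 3 positive peaks of Taf10, whose RefSeq span overlaps that of Ilk, lie outside that span, although the authors' class of each is 3′ untranslated region. Without these 3 peaks, 12 of 27 were positive. SL1 (6 peaks) and TFIIA to TFIIH (14 peaks) also had 0 negative peaks, and 9.62% of all 19049 peaks were negative.

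Set beside the input RNA, 25 of the 40 genes with higher RNA had a positive peak (62.5%), and 3 of the 20 with lower RNA did (15.0%). Over all tested protein-coding genes these shares were 43.0% of 4022 and 33.8% of 4139. A negative peak was found in 6 of the 40 (15.0%) and in 0 of the 20, against 14.8% and 13.1% over all. Any peak was found in 32 of 40 higher and 11 of 20 lower genes, against 75.2% and 66.3% over all, and the difference between the directions was not tested. Both partners of TFIIF had positive peaks, although their RNA moved in opposite directions. Neither Taf4 nor Taf6 had a peak, and Taf4b had 2 peaks that were not called. Whether the deposited difference of a peak takes account of the change in input RNA is not stated.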

How the data were processed

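Input and anti-ac4C IP libraries of ID8 cells were made in 4 groups of 3, per the labels. Per the submitters' processing notes, the build was mm10 and the tools were HISAT2, HOMER, FastQC and fastp. No peak caller, counting tool or strand setting is named. The authors deposited FPKM values for the 6 input libraries, with the authors' log2 fold change and p-value, which serve as an alternative here. The peak table holds, per the file headers, the authors' fold (ratio) of IP over input, the log2 difference between treatments and log10 p-value scores.

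Genes reaching 1 FPKM in 3 or more libraries entered limma (version 3.58.1, under R 4.3.3), as log2(FPKM + 1) through lmFit and trended eBayes, with Benjamini-Hochberg adjustment over all genes and a threshold of 0.05. The script was tested on simulated data. FPKM steps gave whole fragments for all 14852 genes within a tolerance of 0.0001, and voom was run on these as an alternative, beside other pseudocounts, filters and scalings and leaving out each library. Tables and figures used Python 3.11.15, pandas 2.3.3, scipy 1.17.1 and matplotlib 3.10.9. Coordinates were converted to counting from 1. The genes and lists were chosen with earlier results of these data known. Named with values per library were the largest polymerase subunits, paralogue pairs and up to 4 genes per group with the largest change; TFIIF and TFIIA partners, subunits under older names and the kinase module were added with their values seen. One gene of the set is counted in the totals and not reported singly here.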

Additional observations from a re-analysis of the deposited data

How the results depend on the processing

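Of the 60 called genes, 50 kept direction and call in each alternative in which they were tested and 10 lost the call in at least 1: Gtf2e2, Gtf3c5, Polr2b, Polr2i, Polr2l, Polr3c, Polr3gl, Taf1c, Taf5 and Taf8. Of the 50, 43 were tested in all 14 alternatives, 6 in 13 and Gtf3c2 in 10. None of the 60 reversed, and 4 uncalled genes, among them Gtf2ird1, Polr3a and Polr3k, passed somewhere. Across all alternatives 36 to 41 genes were higher and 14 to 21 lower, and the authors' deposited table called 39 higher and 17 lower. The lower count of polymerase II alone was 0 with a filter at 5 FPKM and in the authors' deposited table. With each library rescaled to a common sum, polymerase III alone had 2 higher and 2 lower genes, and the median of all genes moved by -0.09. The shared subunits had 0 lower genes with the filter at 5 FPKM, 1 under quantile normalization and in the authors' deposited table, and 1 to 2 when leaving out 1 library. The other transcription genes had 11 lower with the filter at 5 FPKM. Uncalled genes near 0 that changed sign included Gtf2h3 (0.0241 under quantile normalization, and -0.0390 to 0.0153 when leaving out 1 library, above 0 without cisplatin replicate 3 and, at 0.0004, without control replicate 2), Polr3f (0.0920 under quantile normalization), Taf10 (-0.0041 with a common sum) and Taf2 (-0.0760 to 0.0013, above 0 without control replicate 2); the cause was not tested. Replicate numbers are shared in the labels, and same-numbered libraries deviated little together (correlation of deviations 0.097, -0.116 and 0.043). With 3 libraries per group this cannot settle whether they were paired. With the replicate block, 40 genes were higher and 19 lower. At an authors' adjusted p of 0.01, 56 peaks were positive and 7 negative. Depth limits most the 8 genes with under 100 recovered fragments in a library, namely Gtf3c2, Polr2d, Polr2i, Polr2k, Polr2l, Taf1b, Taf1c and Taf9b.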
